A study of Mus musculus with 5 samples.

Results

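The 49 genes described here encode the machinery that divides chromosomes: the CDK1 kinase with its cyclins and phosphatases, the spindle checkpoint, the kinetochore, the spindle and cytokinesis proteins, and condensin with the chromosome proteins Top2a and Mki67. They were taken as a named list and matched by symbol to the deposited table of normalised counts, which held all 49 among its 27526 genes. All 49 also passed the filter on low counts and were among the 16120 genes tested.

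RNA was sequenced in bulk from mouse leukaemia cells of an AML1-ETO9a model whose label names them Kit-positive leukaemia stem cells, Kit being a receptor of blood stem and progenitor cells. Cells of both groups carried AML1-ETO9a, a truncated RUNX1-RUNX1T1 fusion protein of acute myeloid leukaemia. The groups were 2 libraries labelled Plcg1 +/+ (wild-type, replicates 1 and 3) and 3 libraries labelled Plcg1 -/- by conditional deletion (deleted, replicates 2, 4 and 6). Plcg1 encodes phospholipase C gamma 1, which cleaves a membrane lipid to make second messengers downstream of receptors. No source used here gives the Cre line or inducer of the deletion, the age of the mice, or whether each library came from its own mouse. The p-values below therefore reflect the spread among these 5 libraries alone, and part of that spread may be technical.

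At the start of mitosis CDK1, bound to cyclin A or B, phosphorylates many proteins, the chromosomes condense, and kinetochores assemble on the centromeres to catch spindle microtubules. The spindle checkpoint holds the cell until every kinetochore is attached, after which the anaphase-promoting complex marks cyclin B and securin for destruction, separase cuts cohesin, and the sister chromatids part. Most of these genes are transcribed in G2 and mitosis and are silent in resting cells, so their summed RNA in a tissue is widely used as a measure of how many of its cells are dividing.

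Gene counts per library ran from 37306507 to 57133771. Levels are given as CPM, the usual depth-scaled read count, with library sizes adjusted by the trimmed mean of M-values (TMM). Plcg1 was at 22.1 CPM in wild-type 1, 33.99 in wild-type 3, 53.00 in deleted 2, 26.9 in deleted 4 and 37.1 in deleted 6, so its level overlapped between the labels, and counts over the whole gene do not show whether an exon is missing. Deleted 6 stood apart. Its 10 most abundant genes took 20.4% of its gene counts, against 4.76% to 8.96% in the other libraries, and Kit, the receptor in the label, was at 26.8 CPM in wild-type 1, 32.1 in wild-type 3, 672 in deleted 2, 304 in deleted 4 and 3.08 in deleted 6. Macrophage markers (13 of 13 found) summed to 72295 CPM in deleted 6, most of it Lyz2, and to 8628 to 18372 CPM elsewhere, but only 5 of the 13 were highest there. Primary granule genes of myeloid progenitors (5 of 5 found) summed to 12.6 CPM in deleted 6 and to 7007 to 12977 CPM in the other 4 libraries. Mast cell markers (7 of 7) summed to 64.9 CPM in wild-type 1, 110.2 in wild-type 3, 8994 in deleted 2, 3827 in deleted 4 and 31.0 in deleted 6. Mature neutrophil markers (7 of 7) summed to 1388 CPM in deleted 6 and 6881 to 10669 CPM elsewhere, and 5 of the 7 were lowest there. Mmp8 made up 1278 CPM of that sum and was itself highest in deleted 6, whereas S100a9 was at 33.7 CPM there and at 2500.1 to 3862 CPM elsewhere. T cell markers (4 of 6 found) summed to at most 4.50 CPM in any library, and B cell markers, at 3.96 to 21.2 CPM elsewhere, had no count in deleted 6. File names place wild-type 1 in lane 3, wild-type 3, deleted 2 and deleted 4 in lane 4, and deleted 6 alone in lane 5, so this library and its lane cannot be told apart. The part of cell makeup, lane and library quality in the results below was not tested, and the tests and medians are given with and without deleted 6.

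The mitotic genes were lower in the libraries labelled deleted, modestly in deleted 2 and 4 and at least 8-fold in deleted 6 for most genes. Their summed level was 6302 CPM in wild-type 1, 6789 in wild-type 3, 4901 in deleted 2, 4614 in deleted 4 and 513 in deleted 6. All 3 deleted libraries lay below both wild-type libraries for 46 of the 49 genes, or 93.9%, whereas 23.7% of all genes tested had that order. The exceptions were Cdc25b and Espl1, whose groups overlapped, and Pttg1, which was marginally higher in every deleted library (22.4% of genes tested were higher in all 3). Among related lists described below, all 3 deleted libraries were also lowest for 25 of 27 DNA replication genes and 10 of 12 mitotic kinesins. The same held for 20 of 28 other kinetochore and centromere genes, 3 of 3 condensin II subunits and 11 of 14 other G2 and mitotic entry genes. It held for 15 of 22 other spindle, centrosome and cytokinesis genes. The order was rarer among MuvB, B-Myb and FoxM1 regulators (7 of 12) and anaphase-promoting complex genes (7 of 17). In these bulk samples fewer dividing cells and less mitotic RNA per cell cannot be told apart.

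Deleted 6 and the other deleted libraries differed greatly in size of effect. Of the 49 genes, 48 had their lowest level in deleted 6, against 37.9% of genes tested, and the wild-type mean exceeded the deleted 6 level at least 8-fold in 43 genes (6.36% of genes tested) and at least 16-fold in 34 (3.83%). The median ratio was 27.0, led by Spc24 at 112, Top2a at 106, Ccna2 at 105 and Ttk at 103. Incenp, Espl1, Smc4, Cdc25b, Bub3 and Pttg1 were the 6 genes below 8-fold. In deleted 2 and 4 the mean level was a median of 73.9% of the wild-type mean, from 56.8% for Cenpm to 103% for Pttg1. Those 2 libraries together were below both wild-type libraries for 46 genes (29.4% of genes tested) and above both for 1, Pttg1 (28.8% of genes tested). Replicates were close beside the drop in deleted 6. Wild-type 3 and wild-type 1 differed by a median of 0.17 on the log2 scale over the 49 genes, and by at most 0.41. Deleted 4 and deleted 2 differed by a median of 0.12 and by at most 0.35. Wild-type 1 lay below the mean of the wild-type pair for 34 of the 49 genes. Being 1 library, deleted 6 has no test of its own, and its values are a description.

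**Figure D1:**
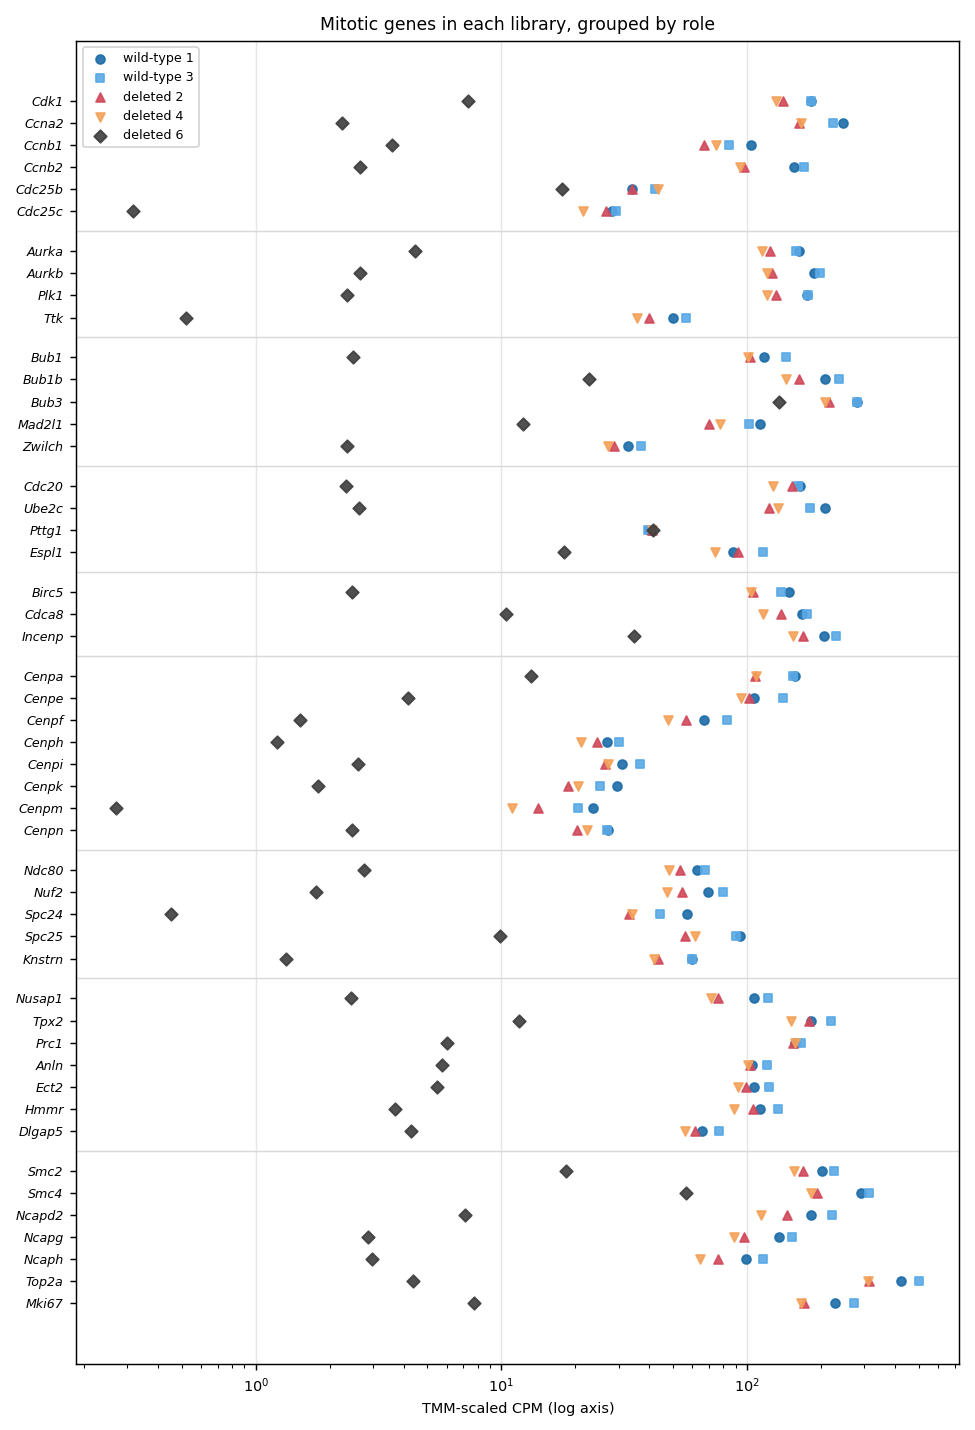
TMM-scaled CPM (horizontal log axis) of each mitotic gene in each of the 5 libraries, with 1 symbol per library and the genes grouped by role from the CDK1 module at the top to condensin at the bottom. Black diamonds (deleted 6) lie far to the left for nearly every gene, Pttg1, Bub3 and Cdc25b being the clearest exceptions. Deleted 2 and 4 lie just left of the wild-type symbols, except for Cdc25b, Pttg1 and Espl1.

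With all 5 libraries, edgeR's quasi-likelihood test called none of the 49 genes in either direction after Benjamini-Hochberg adjustment at 0.05, nor any of the 16120 genes tested (0.0%). No mitotic gene had an unadjusted p under 0.05, a level that 14.9% of genes tested passed, and their adjusted p-values ran from 0.360 to 0.876. The median log2 fold change of deleted over wild-type was -0.98 for the 49 genes and 0.01 for all genes. The median standard error of the 49 genes was 1.10, against 0.14 when deleted 6 was left out. DESeq2 called 0 of the 49, with 0 at an unadjusted p under 0.05, while calling 5.75% of genes higher and 3.05% lower. Limma-voom with library quality weights also called 0 of the 49, with 3 at an unadjusted p under 0.05 and a smallest adjusted p of 0.0562, while calling 7.63% of genes higher and 5.87% lower. With no filter on low counts edgeR called 0 of the 49, beside 0.539% of genes higher and 0.38% lower.

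When deleted 6 was left out, 11 of the 49 genes were lower by the edgeR test and none higher, or 22.4% lower beside 5.07% of the 15787 genes then tested (7.89% were higher). The 11 were Ccnb2, Aurkb, Ube2c, Cenpa, Cenpm, Spc25, Nusap1, Smc4, Ncapg, Ncaph and Mki67, with log2 fold changes from -0.80 to -0.51 and adjusted p-values from 0.0140 to 0.0495. Of the 49, 33 had an unadjusted p under 0.05 (28.6% of genes tested), and 47 had a negative estimate, all but Cdc25b and Pttg1. The median log2 fold change was -0.42, against -0.01 for all genes, and standard errors ran from 0.12 to 0.20 in this fit of 2 wild-type and 2 deleted libraries. Within lane 4 alone, wild-type 3 against deleted 2 and 4, no mitotic gene was called (0.779% of genes were called lower and 1.26% higher), the smallest adjusted p was 0.0802, and 26 genes had an unadjusted p under 0.05 (20.3% of genes). The median there was -0.46. The lane 4 test has a single wild-type library, whose spread is assumed to equal that of the deleted pair.

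**Figure D2:**
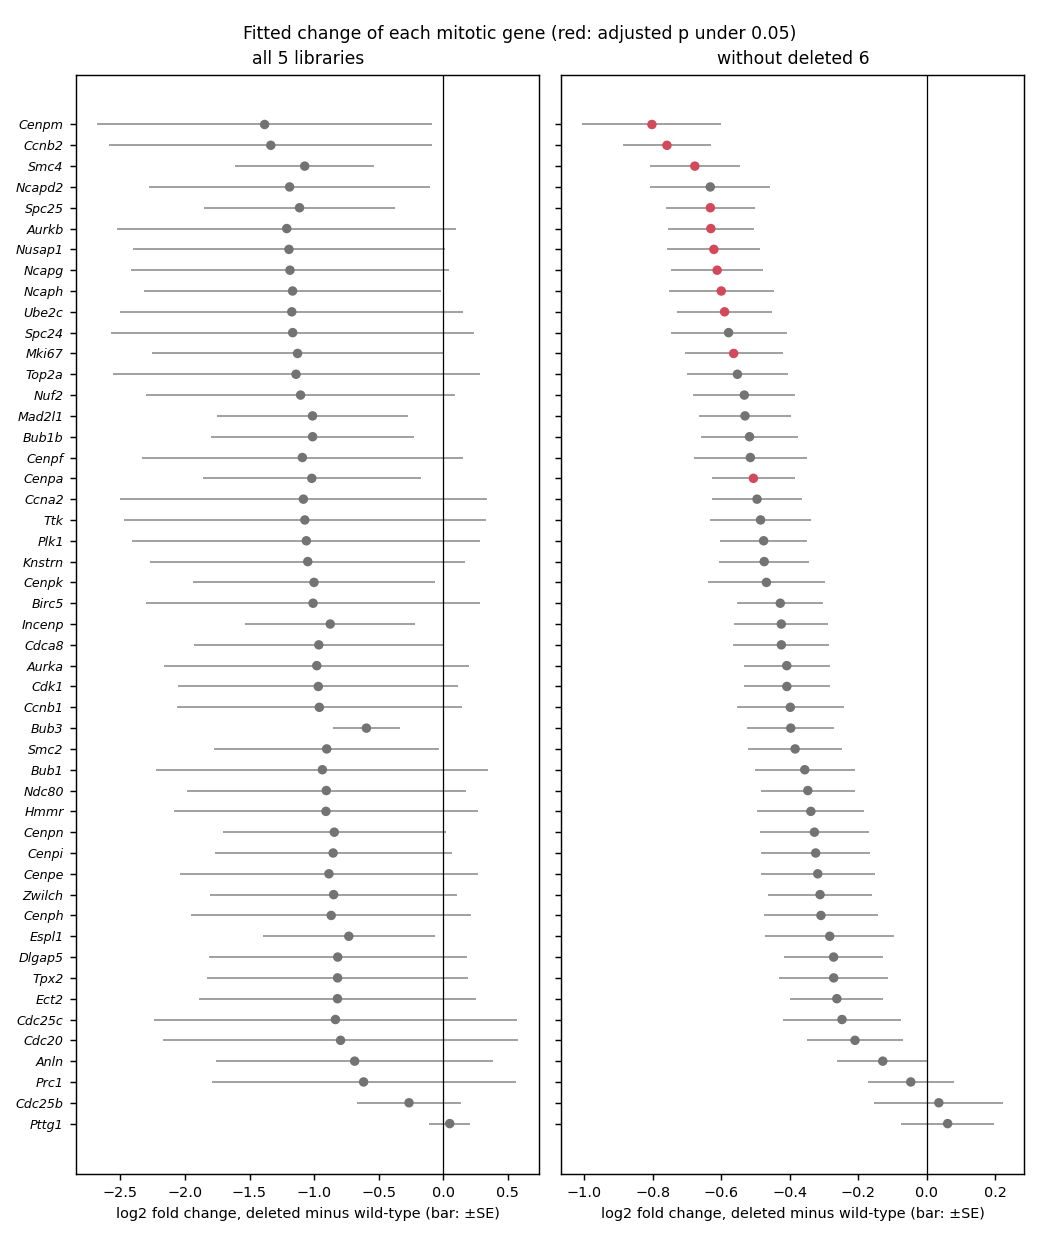
Fitted log2 fold change of each gene, deleted minus wild-type, with bars of 1 standard error, from all 5 libraries (left) and without deleted 6 (right, on a narrower axis); the order of genes is the same and red marks an adjusted p under 0.05. With all libraries the bars are wide and no gene is red; without deleted 6 the estimates run from -0.80 for Cenpm to 0.06 for Pttg1 and 11 genes are red.

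Many G2 and mitotic genes carry a pair of short promoter elements: the cell cycle homology region, whose core is TTTGAA and through which the DREAM and MMB complexes act, and CCAAT boxes bound by NF-Y. The sequences before the RefSeq start of 6 members are shown because these genes span the module, from CDK1 and its B cyclins to the anaphase activator Cdc20. All 6 were lower in each deleted library (23.7% of genes tested were), and their windows differ in these letters. Sequences are RefSeq promoters on GRCm38.p6, 5′ to 3′ on the gene's own strand, ending at the last base before the start site except for Ccnb1, which is shown to 55 bases before it. The windows shown are chr10:69352913-69353162 (Cdk1, minus strand), chr13:100786541-100786736 (Ccnb1, minus strand), chr9:70421555-70421804 (Ccnb2, minus strand), chr7:122159185-122159434 (Plk1, plus strand), chr11:117848987-117849236 (Birc5, plus strand) and chr4:118437344-118437593 (Cdc20, minus strand). Capitals mark TTTGAA and CCAAT on either strand, so that ATTGG is CCAAT on the opposite one.
Cdk1: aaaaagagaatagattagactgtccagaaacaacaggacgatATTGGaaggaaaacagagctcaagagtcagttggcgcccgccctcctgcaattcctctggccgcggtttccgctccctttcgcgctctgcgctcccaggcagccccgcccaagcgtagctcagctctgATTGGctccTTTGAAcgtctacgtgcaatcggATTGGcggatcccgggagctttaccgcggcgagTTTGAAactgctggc
Ccnb1: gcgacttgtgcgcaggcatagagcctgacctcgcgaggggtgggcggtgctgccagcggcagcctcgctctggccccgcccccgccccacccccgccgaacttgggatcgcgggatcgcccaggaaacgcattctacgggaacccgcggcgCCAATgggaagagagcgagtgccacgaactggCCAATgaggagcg
Ccnb2: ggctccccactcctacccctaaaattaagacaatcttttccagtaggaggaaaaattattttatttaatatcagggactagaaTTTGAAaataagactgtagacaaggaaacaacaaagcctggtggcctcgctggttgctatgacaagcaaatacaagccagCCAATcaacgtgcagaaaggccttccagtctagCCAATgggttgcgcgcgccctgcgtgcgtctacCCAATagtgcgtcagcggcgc
Plk1: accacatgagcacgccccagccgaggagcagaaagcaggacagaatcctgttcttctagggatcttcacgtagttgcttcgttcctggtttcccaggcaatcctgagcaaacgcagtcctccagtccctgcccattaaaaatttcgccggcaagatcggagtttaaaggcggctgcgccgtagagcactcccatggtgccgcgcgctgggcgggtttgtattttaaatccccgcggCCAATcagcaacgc
Birc5: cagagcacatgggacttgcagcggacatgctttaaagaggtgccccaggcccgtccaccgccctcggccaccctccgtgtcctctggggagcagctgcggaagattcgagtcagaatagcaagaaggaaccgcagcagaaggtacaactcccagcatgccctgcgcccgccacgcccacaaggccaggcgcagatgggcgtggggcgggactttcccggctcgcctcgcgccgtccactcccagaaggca
Cdc20: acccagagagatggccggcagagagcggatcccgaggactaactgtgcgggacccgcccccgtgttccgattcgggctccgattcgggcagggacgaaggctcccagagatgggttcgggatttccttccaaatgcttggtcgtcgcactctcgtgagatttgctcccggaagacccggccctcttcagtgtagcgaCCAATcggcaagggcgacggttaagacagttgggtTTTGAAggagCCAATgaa
Cdk1 held TTTGAA at 71 and 15 bases before the start and CCAAT at 208, 80 and 48 bases before it. Ccnb2 held TTTGAA at 167 bases before the start and at base 5 after it, and CCAAT at 87, 54 and 21 bases before it. Ccnb1 held CCAAT at 99 and 67 bases before the start and no TTTGAA. Cdc20 held TTTGAA at 18 and CCAAT at 53 and 8 bases before the start, and Plk1 held CCAAT at 14 bases before it with TTTGAA only at base 31 after it. Birc5 held neither in its window. Positions are those of the motif's first base, read along the printed strand. GENCODE M21 starts Cdk1, Ccnb1 and Cdc20 further upstream than RefSeq, so their last printed bases lie inside the GENCODE gene, with the TTTGAA of Cdk1 at 15, the CCAAT of Ccnb1 at 67 and the CCAAT of Cdc20 at 8 bases before the RefSeq start. The Ccnb1 sequence was shortened to limit the bases shown from inside that gene.

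Of the 49 members, 40 had a promoter in the RefSeq table, counted here from 250 bases before to 50 bases after the start and on both strands. TTTGAA was present in 25 of the 40 (62.5%), in 12.1% of the promoters of genes tested and in 18.1% of all 27025 promoters in the table. CCAAT was present in 31 (77.5%), against 38.3% of genes tested and 37.9% of all promoters, and 19 members (47.5%) held at least 2 CCAAT, against 14.6% and 12.2%. Both motifs stood together in 23 members (57.5%), against 4.96% of genes tested and 7.12% of all promoters. The motifs shared bases with each other once in all member promoters. Among 20 promoters of DNA replication genes, 13 held CCAAT (65.0%) but 3 held TTTGAA (15.0%). A match is a run of letters and not a measured binding site. Members with TTTGAA had a median wild-type to deleted 6 ratio of 27.0 (range 2.08 to 106), and the 15 without it a median of 29.6 (0.962 to 81.6). The 7 members with neither motif, Pttg1 and Birc5 among them, had a median of 42.1 (0.962 to 57.8). The ranges of these groups overlapped. Without deleted 6 the median log2 change was -0.42 with TTTGAA, -0.43 without it and -0.53 with neither motif.

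The CDK1 module starts mitosis. Gene positions here and below are from GENCODE M21 on GRCm38, the build named mm10 in the submitters' processing notes. Its kinase, cyclins and Cdc25c were lower in every deleted library (23.7% of genes tested were), and Cdc25b was not. Cdk1, the kinase itself, was at 182 CPM in wild-type 1, 182 in wild-type 3, 141 in deleted 2, 131 in deleted 4 and 7.33 in deleted 6. Ccna2, cyclin A2, which acts in S phase and G2, was at 245 CPM in wild-type 1, 223 in wild-type 3, 163 in deleted 2, 167 in deleted 4 and 2.24 in deleted 6. Its wild-type to deleted 6 ratio was 105. Ccnb1, cyclin B1, the main mitotic cyclin, was at 104 CPM in wild-type 1, 84.4 in wild-type 3, 66.7 in deleted 2, 74.99 in deleted 4 and 3.60 in deleted 6. For Ccnb1, 23.4% of the gene's 50-base words also occur in 6 other annotated genes, its pseudogenes among them, and reads that align to several places were left out of the counts. Ccnb2 (chr9:70407692-70421547, minus strand), cyclin B2, was at 155 CPM in wild-type 1, 171 in wild-type 3, 97.1 in deleted 2, 93.9 in deleted 4 and 2.67 in deleted 6. It fell to 58.6% of the wild-type mean in deleted 2 and 4, a log2 change of -0.76 ± 0.13 (SE) without deleted 6 (edgeR adjusted p = 0.0140), the smallest adjusted p of the 49 genes.

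The CDC25 phosphatases remove the inhibitory phosphates from CDK1. Cdc25c was at 28.3 CPM in wild-type 1, 29.4 in wild-type 3, 26.6 in deleted 2, 21.6 in deleted 4 and 0.317 in deleted 6, with deleted 2 and 4 just below the wild-type libraries and only 14 counts in deleted 6. Cdc25b, which acts earlier in G2, was at 33.9 CPM in wild-type 1, 42.3 in wild-type 3, 34.02 in deleted 2, 43.4 in deleted 4 and 17.7 in deleted 6. Its groups overlapped, with deleted 4 the highest of all, and its log2 change was -0.26 ± 0.41 (SE) with all libraries and 0.03 ± 0.19 without deleted 6.

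The mitotic kinases were each lower in all 3 deleted libraries than in both wild-type libraries, as were 23.7% of genes tested. Aurka, which drives centrosome maturation, was at 162 CPM in wild-type 1, 158 in wild-type 3, 124 in deleted 2, 115 in deleted 4 and 4.45 in deleted 6. Aurkb (chr11:69045647-69051664, plus strand), the catalytic subunit of the chromosomal passenger complex, was at 187 CPM in wild-type 1, 198 in wild-type 3, 126 in deleted 2, 120.1 in deleted 4 and 2.67 in deleted 6. Aurkb was the only kinase of the 4 called without deleted 6, at -0.63 ± 0.13 (SE; adjusted p = 0.0241). Plk1, polo-like kinase 1, was at 176 CPM in wild-type 1, 177 in wild-type 3, 131 in deleted 2, 120.4 in deleted 4 and 2.35 in deleted 6, with 10.4% of its words shared with 2 other annotated genes. Ttk, also called MPS1, which starts checkpoint signalling at the kinetochore, was at 50.1 CPM in wild-type 1, 56.6 in wild-type 3, 39.7 in deleted 2, 35.8 in deleted 4 and 0.520 in deleted 6. Aurka, Plk1 and Ttk missed the threshold without deleted 6 with log2 changes of -0.41 ± 0.13, -0.48 ± 0.13 and -0.49 ± 0.15 (SE).

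The spindle checkpoint genes split by how far they dropped in deleted 6, and none was called with or without that library. Without deleted 6 their edgeR adjusted p-values ran from 0.0502 for Mad2l1, just over the threshold, to 0.242 for Zwilch. The log2 change of Mad2l1 in that fit was -0.53 ± 0.14 (SE). Bub1, a kinase that recruits checkpoint proteins to kinetochores, was at 118 CPM in wild-type 1, 145 in wild-type 3, 103 in deleted 2, 101 in deleted 4 and 2.49 in deleted 6. Bub1b, or BUBR1, part of the complex that inhibits CDC20, was at 207 CPM in wild-type 1, 237 in wild-type 3, 163 in deleted 2, 145 in deleted 4 and 22.8 in deleted 6. Mad2l1, MAD2, which with BUBR1 forms that inhibitor, was at 113 CPM in wild-type 1, 102 in wild-type 3, 69.8 in deleted 2, 77.4 in deleted 4 and 12.3 in deleted 6. The wild-type to deleted 6 ratio was 52.7 for Bub1, against 9.74 for Bub1b and 8.73 for Mad2l1. Zwilch, a subunit of the RZZ complex at unattached kinetochores, was at 32.8 CPM in wild-type 1, 37.1 in wild-type 3, 28.7 in deleted 2, 27.2 in deleted 4 and 2.35 in deleted 6. Bub3 (chr7:131560222-131571895, plus strand), which binds phosphorylated KNL1 at the kinetochore and also has roles outside mitosis, was at 279.8 CPM in wild-type 1, 282 in wild-type 3, 215 in deleted 2, 208 in deleted 4 and 135 in deleted 6. In deleted 6 it stood at 48.1% of the wild-type mean. Its log2 change with all libraries was -0.59 ± 0.26 (SE), with the smallest adjusted p of the members in that fit, 0.360.

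The genes that trigger anaphase held the clearest exception. Cdc20, the activator of the anaphase-promoting complex in mitosis, was at 164 CPM in wild-type 1, 162 in wild-type 3, 152 in deleted 2, 127 in deleted 4 and 2.33 in deleted 6. Ube2c (chr2:164769898-164778822, plus strand), the E2 ubiquitin-conjugating enzyme of that complex, was at 208 CPM in wild-type 1, 181 in wild-type 3, 123 in deleted 2, 134 in deleted 4 and 2.62 in deleted 6. Ube2c fell without deleted 6 by a log2 change of -0.59 ± 0.14 (SE, edgeR adjusted p = 0.0400). Cdc20 was at -0.21 ± 0.14 and not called, and the difference between these genes was not tested. Tnnc2 overlaps 22.8% of the Ube2c exon bases on the opposite strand, but it had no count in any library. Pttg1 (chr11:43420250-43426251, minus strand), securin, the inhibitor of separase, was at 40.04 CPM in wild-type 1, 39.6 in wild-type 3, 41.2 in deleted 2, 41.2 in deleted 4 and 41.4 in deleted 6. Its level hardly differed between the 5 libraries, with a log2 change of 0.05 ± 0.16 (SE) with all libraries and 0.06 ± 0.13 without deleted 6. None of its 50-base words occurs in another annotated gene. Espl1, separase, was at 87.4 CPM in wild-type 1, 116 in wild-type 3, 92.1 in deleted 2, 73.8 in deleted 4 and 18.1 in deleted 6, so that deleted 2 lay between the wild-type libraries while deleted 6 stood lowest.

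The chromosomal passenger complex corrects wrong attachments of microtubules. Its 3 non-catalytic subunits here were below the wild-type libraries in each deleted library (23.7% of genes tested were), and none was called. Birc5, survivin, was at 148 CPM in wild-type 1, 137 in wild-type 3, 106 in deleted 2, 104 in deleted 4 and 2.46 in deleted 6. Cdca8, borealin, was at 167 CPM in wild-type 1, 176 in wild-type 3, 137 in deleted 2, 116 in deleted 4 and 10.4 in deleted 6. Incenp, the scaffold that activates AURKB, was at 206 CPM in wild-type 1, 231 in wild-type 3, 169 in deleted 2, 153 in deleted 4 and 34.6 in deleted 6. In deleted 2 and 4 these subunits stood at 73.7% to 73.9% of the wild-type mean, nearly the same share, but in deleted 6 their ratios spread from 6.31 for Incenp to 57.8 for Birc5.

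The 8 centromere proteins were all lower in every deleted library than in both wild-type libraries, as were 23.7% of genes tested. Cenpa (chr5:30666777-30674830, plus strand), the histone H3 variant that marks centromeric chromatin, was at 157 CPM in wild-type 1, 154 in wild-type 3, 108 in deleted 2, 109 in deleted 4 and 13.2 in deleted 6. Cenpm (chr15:82233779-82244748, minus strand), a subunit of the constitutive centromere network, was at 23.7 CPM in wild-type 1, 20.6 in wild-type 3, 14.1 in deleted 2, 11.02 in deleted 4 and 0.271 in deleted 6, with 12 counts in deleted 6, the lowest count of any member. Both fell without deleted 6, Cenpa by a log2 change of -0.51 ± 0.12 (SE; adjusted p = 0.0426) and Cenpm by -0.80 ± 0.20 (SE; adjusted p = 0.0488). Cenpe, the kinetochore kinesin that carries chromosomes to the spindle equator, was at 106 CPM in wild-type 1, 140.3 in wild-type 3, 102 in deleted 2, 94.5 in deleted 4 and 4.16 in deleted 6. Cenpf, a large coiled-coil protein of the outer kinetochore, was at 67.1 CPM in wild-type 1, 82.99 in wild-type 3, 56.4 in deleted 2, 47.7 in deleted 4 and 1.52 in deleted 6. Cenph, Cenpi, Cenpk and Cenpn, are further subunits of the constitutive network. Cenph was at 27.05, 29.99, 24.5, 21.2 and 1.22 CPM in the order wild-type 1, wild-type 3, deleted 2, deleted 4 and deleted 6. In the same order Cenpi was at 31.05, 36.7, 26.4, 27.3 and 2.60 CPM. Cenpk was at 29.5, 25.3, 18.7, 20.5 and 1.79 CPM, and the order of the groups was the same as for the others. Cenpn was at 27.1, 26.8, 20.3, 22.3 and 2.46 CPM, and had the smallest wild-type to deleted 6 ratio of the 8, 10.9.

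The NDC80 complex is the part of the kinetochore that grips the microtubule, built from a pair of dimers: Ndc80 with Nuf2, and Spc24 with Spc25. All 4 subunits were lower in each deleted library than in both wild-type libraries, as were 23.7% of genes tested. Ndc80 was at 62.5 CPM in wild-type 1, 67.6 in wild-type 3, 53.2 in deleted 2, 48.2 in deleted 4 and 2.76 in deleted 6. Nuf2 was at 69.1 CPM in wild-type 1, 79.5 in wild-type 3, 54.5 in deleted 2, 47.4 in deleted 4 and 1.76 in deleted 6. Spc24 (chr9:21755442-21760303, minus strand) was at 56.8 CPM in wild-type 1, 44.04 in wild-type 3, 32.97 in deleted 2, 34.00 in deleted 4 and 0.452 in deleted 6, the largest wild-type to deleted 6 ratio of the 49 at 112, on 20 counts. Its partner Spc25 (chr2:69193895-69206194, minus strand) was at 93.6 CPM in wild-type 1, 90.1 in wild-type 3, 56.2 in deleted 2, 61.4 in deleted 4 and 9.84 in deleted 6, a ratio of only 9.34. In deleted 2 and 4 the dimer partners were close, at 66.4% and 64.0% of wild-type, and Spc25 fell by a log2 change of -0.63 ± 0.13 (SE; adjusted p = 0.0260). Knstrn, kinastrin, which binds spindle microtubules and kinetochores, was at 59.9 CPM in wild-type 1, 59.7 in wild-type 3, 43.5 in deleted 2, 41.8 in deleted 4 and 1.33 in deleted 6 and was not called.

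All 7 spindle assembly and cytokinesis genes were below both wild-type libraries in each deleted library, an order that 23.7% of genes tested had. Their median log2 change was -0.27 without deleted 6. Nusap1 (chr2:119618298-119651244, plus strand), which bundles spindle microtubules around chromosomes, was at 107 CPM in wild-type 1, 122 in wild-type 3, 76.3 in deleted 2, 71.03 in deleted 4 and 2.44 in deleted 6. It was the only one of the 7 that fell without deleted 6, by -0.62 ± 0.14 (SE; adjusted p = 0.0312). Tpx2, which activates AURKA on the spindle, was at 182 CPM in wild-type 1, 219 in wild-type 3, 178 in deleted 2, 151 in deleted 4 and 11.8 in deleted 6. Prc1, which bundles the antiparallel microtubules of the midzone, was at 157 CPM in wild-type 1, 167 in wild-type 3, 154 in deleted 2, 156 in deleted 4 and 5.99 in deleted 6. In deleted 2 and 4 Prc1 stood at 96.0% of wild-type, the highest share after Pttg1 and Cdc25b, yet in deleted 6 it was 27.0-fold below. Anln, anillin, a scaffold of the contractile ring, was at 105 CPM in wild-type 1, 120.4 in wild-type 3, 103 in deleted 2, 101 in deleted 4 and 5.74 in deleted 6. Ect2, the exchange factor that turns on RhoA at the cleavage site, was at 107 CPM in wild-type 1, 123 in wild-type 3, 98.6 in deleted 2, 91.8 in deleted 4 and 5.45 in deleted 6. Both lay just under the wild-type libraries in deleted 2 and 4, at 90.7% and 82.7% of the mean. Hmmr, a microtubule-binding protein of spindle poles, was at 113 CPM in wild-type 1, 134 in wild-type 3, 106 in deleted 2, 88.1 in deleted 4 and 3.71 in deleted 6. Dlgap5, HURP, which stabilises kinetochore fibres, was at 65.8 CPM in wild-type 1, 77.02 in wild-type 3, 61.3 in deleted 2, 55.99 in deleted 4 and 4.30 in deleted 6. Without deleted 6 the log2 changes of these uncalled genes ran from -0.34 ± 0.16 for Hmmr to -0.05 ± 0.12 for Prc1 (SE).

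Of 7 condensin and chromosome structure genes, 4 were called lower without deleted 6, beside 5.07% of genes tested. Smc2, an ATPase of the condensin core, was at 201 CPM in wild-type 1, 227 in wild-type 3, 169 in deleted 2, 156 in deleted 4 and 18.3 in deleted 6. Its partner Smc4 (chr3:69004738-69034623, plus strand) was at 292 CPM in wild-type 1, 313 in wild-type 3, 192 in deleted 2, 182 in deleted 4 and 56.2 in deleted 6. Smc4 fell to 62.0% of wild-type in deleted 2 and 4, by a log2 change of -0.68 ± 0.13 (SE; adjusted p = 0.0216), while Smc2 was at 76.0% and not called, with -0.38 ± 0.14. The difference between the partners was not tested. Ncapd2, Ncapg and Ncaph are the regulatory subunits of condensin I. Ncapd2 was at 182 CPM in wild-type 1, 222 in wild-type 3, 145 in deleted 2, 114 in deleted 4 and 7.12 in deleted 6. Ncapg (chr5:45669919-45700546, plus strand) was at 135 CPM in wild-type 1, 152 in wild-type 3, 97.6 in deleted 2, 88.8 in deleted 4 and 2.87 in deleted 6. Ncaph (chr2:127103809-127133954, minus strand), the kleisin that closes the ring, was at 98.7 CPM in wild-type 1, 116 in wild-type 3, 75.9 in deleted 2, 64.7 in deleted 4 and 2.96 in deleted 6. Ncapg fell by -0.61 ± 0.13 (SE; adjusted p = 0.0324) and Ncaph by -0.60 ± 0.15 (SE; adjusted p = 0.0495), and Ncapd2 missed the threshold at -0.63 ± 0.17 (adjusted p = 0.0634). For Ncapg, 13.4% of exon bases overlap Lcorl on the opposite strand, and neither kit marks strand. In all, 12 members overlap an exon of an opposite-strand gene, among them Cdc25c over 12.7% of its exon bases, Ccna2 over 12.5% and Prc1 over 11.1%, and reads from such stretches cannot be assigned to either gene with certainty.

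Top2a and Mki67 are the best known proliferation genes of the list. Top2a (chr11:98992943-99024189, minus strand), DNA topoisomerase II alpha, which untangles sister chromatids, was at 423 CPM in wild-type 1, 503 in wild-type 3, 315 in deleted 2, 311 in deleted 4 and 4.36 in deleted 6. In deleted 6 it had 193 counts, and its wild-type to deleted 6 ratio was 106. Mki67 (chr7:135689784-135716361, minus strand), the Ki-67 protein that coats mitotic chromosomes, was at 229 CPM in wild-type 1, 272 in wild-type 3, 171 in deleted 2, 165 in deleted 4 and 7.76 in deleted 6. Mki67 fell without deleted 6 by -0.56 ± 0.14 (SE; adjusted p = 0.0488), and Top2a missed the threshold at -0.55 ± 0.15 (adjusted p = 0.0587).

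**Figure D3:**
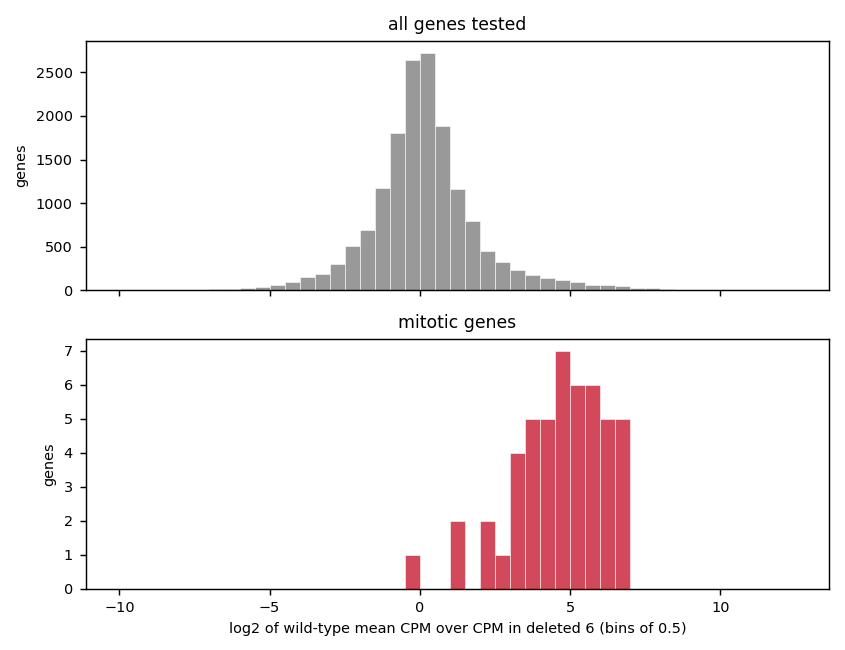
Histograms of the log2 ratio of wild-type mean CPM over deleted 6 CPM (horizontal axis, bins of 0.5) for all genes tested (top) and for the 49 mitotic genes (bottom); the vertical axes count genes. All genes centre near 0, whereas 43 of the mitotic genes lie at or beyond 3, an 8-fold ratio, and Pttg1 is the only one below 0.

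Levels of different genes were compared per kilobase of exon. On that scale the most abundant members in the wild-type mean were Ccnb2 at 106, Cdc20 at 87.2, Plk1 at 80.3, Ube2c at 74.9 and Aurkb at 65.3 CPM per kb. The least abundant were Cenpf at 4.86, Cenpk at 5.23 and Cdc25c at 5.86 CPM per kb. In deleted 6 the order was another one: Pttg1 led at 20.7 CPM per kb, followed by Bub3 at 19.3, Smc4 at 10.8, Incenp at 7.98 and Bub1b at 5.33. These 5 are genes with small ratios between wild-type and deleted 6, while Ccnb2, first in the wild-type mean, was at 1.74 CPM per kb.

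Other genes of the same processes were counted in the same way, from lists that hold no member. Across all 5 libraries none of their genes was called in either direction. Of 28 other kinetochore and centromere genes, 6 were called lower and 1 higher without deleted 6. The background for each list here is 5.07% lower and 7.89% higher, of genes tested in that fit. The median wild-type to deleted 6 ratio of the 28 genes was 8.24 (range 1.13 to 226). Zw10, a partner of Zwilch in the RZZ complex, was at 96.7 CPM in wild-type 1, 125 in wild-type 3, 63.9 in deleted 2, 65.6 in deleted 4 and 38.2 in deleted 6 and fell without deleted 6 by a log2 change of -0.77 ± 0.16 (SE; adjusted p = 0.0277). Mis18a, which helps load CENPA, was at 51.5 CPM in wild-type 1, 50.7 in wild-type 3, 32.6 in deleted 2, 36.2 in deleted 4 and 15.7 in deleted 6 and also fell, by -0.56 ± 0.14 (SE; adjusted p = 0.0477). None of the 3 condensin II subunits was called. Ncaph2 stood closest to wild-type in deleted 6, with 165 CPM in wild-type 1, 182 in wild-type 3, 144 in deleted 2, 136 in deleted 4 and 107 in deleted 6, and Ncapd3 furthest below, with 130.3 CPM in wild-type 1, 177 in wild-type 3, 114 in deleted 2, 95.1 in deleted 4 and 17.03 in deleted 6. Of 12 mitotic kinesins, 1 was called lower without deleted 6, Kif18a, which dampens chromosome oscillations, at -0.65 ± 0.16 (SE; adjusted p = 0.0470). The median ratio of the kinesins in deleted 6, 37.0, was above the 27.0 of the 49 members.

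Median ratios in deleted 6 were smaller for other neighbouring processes. The anaphase-promoting complex also works in G1. The 17 genes of its list, which holds Fzr1, Ube2s and Fbxo5 beside the subunits, had 0 calls. Their median log2 change was -0.23 with all libraries and -0.16 without deleted 6, and their median ratio was 1.45 (range 0.730 to 12.6). Anapc5, a scaffold subunit, was at 485 CPM in wild-type 1, 499 in wild-type 3, 421 in deleted 2, 367 in deleted 4 and 246 in deleted 6. Of 22 other spindle, centrosome and cytokinesis genes, 2 were called lower without deleted 6, with a median ratio of 3.95 (range 0.730 to 51.8). Among 12 MuvB, B-Myb and FoxM1 regulators, which control G2 and mitotic genes, 1 was called lower without deleted 6. Their median ratio was 2.64, but single ratios ran from 0.915 to 171. Rbl1, p107, a member of the DREAM complex, was at 104 CPM in wild-type 1, 114 in wild-type 3, 74.8 in deleted 2, 79.6 in deleted 4 and 40.3 in deleted 6 and was not called. Of 14 other G2 and mitotic entry genes, 4 were called lower without deleted 6, and the median ratio was 13.1 (range 0.377 to 92.7). Wee1, the kinase that inhibits CDK1, was at 51.01 CPM in wild-type 1, 67.9 in wild-type 3, 36.1 in deleted 2, 35.5 in deleted 4 and 25.1 in deleted 6, and it fell without deleted 6 by -0.72 ± 0.17 (SE; adjusted p = 0.0436). In the opposite order, Ensa, an inhibitor of the PP2A-B55 phosphatase, was higher in each deleted library with 94.3 CPM in wild-type 1, 88.3 in wild-type 3, 113 in deleted 2, 129 in deleted 4 and 242 in deleted 6, but was not called (log2 change 0.42 ± 0.14 without deleted 6).

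DNA replication genes act in S phase. Without deleted 6, 12 of 27 were called lower and none higher, beside 5.07% and 7.89% of genes tested, with a median log2 change of -0.59 beside -0.42 for the mitotic genes. With all libraries the medians were -1.03 and -0.98, and in deleted 6 the median ratio was 10.5 against 27.0. Which of these 2 lists differed more was not tested. Rfc3, a subunit of the clamp loader, was at 58.99 CPM in wild-type 1, 52.5 in wild-type 3, 35.5 in deleted 2, 34.7 in deleted 4 and 18.4 in deleted 6 and fell by -0.66 ± 0.14 (SE; adjusted p = 0.0300). Pcna, the sliding clamp of replication, was at 79.1 CPM in wild-type 1, 69.2 in wild-type 3, 47.2 in deleted 2, 55.4 in deleted 4 and 36.3 in deleted 6 and was not called.

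**Figure D4:**
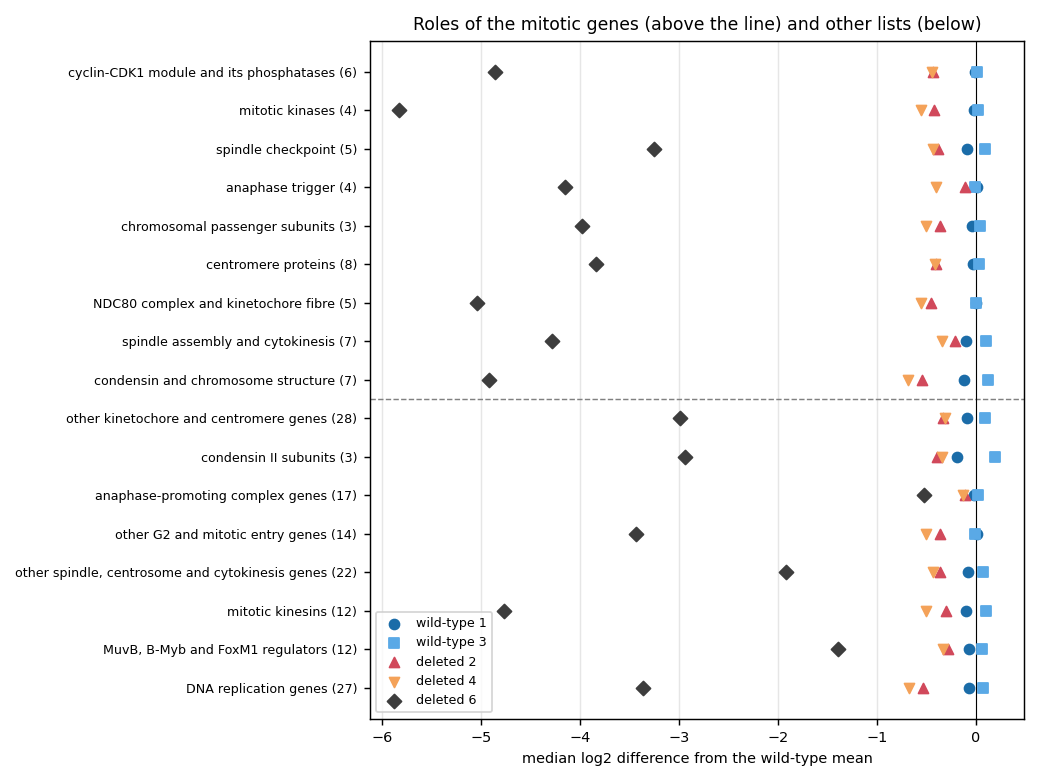
Median log2 difference from the wild-type mean (horizontal axis; log2 of CPM plus 0.5) in each library for the 9 roles of the mitotic genes, above the dashed line, and for 8 other lists, below it, with the number of genes in brackets. Deleted 2 and 4 lie just below 0 in every row and deleted 6 lies furthest left. It lies at -5.82 for the mitotic kinases and only -0.53 for the list of anaphase-promoting complex genes.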

How the data were processed

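RNA extracted with Trizol was turned into libraries with a low-input SMART-Seq v4 kit and Nextera XT, per the labels' protocols, and neither kit marks strand. Bcl2fastq 1.8.4, STAR (no version), DESeq2 1.12.4 and mm10 are named in the submitters' processing notes; no source used here gives the gene annotation or how reads were counted. The authors deposited whole-number read counts for 46603 genes per library. The normalised signal in the series table the authors deposited equals those counts divided by 1 factor per library, and it did not enter the tests. The gene symbols of that table were used to find the 49 members, the genes of the other lists and the markers.

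Rows that name no gene (multiply aligned reads were 13.0% to 15.1% of a library's reads, those in no feature 5.89% to 8.09%, unaligned 2.48% to 4.13% and ambiguous 2.36% to 2.78%) stayed out of library sizes and tests. Genes were filtered with filterByExpr, scaled by TMM and tested with edgeR 4.0.16 (glmQLFit and glmQLFTest; R 4.3.3, limma 3.58.1) on genotype, over all 16120 genes, with Benjamini-Hochberg adjustment and a call under 0.05. The standard error is the log2 fold change over the square root of F. DESeq2 1.42.0, limma-voom with quality weights, other size factors, other filters, lane 4 alone and each library left out in turn were alternatives. The log2 differences from the wild-type mean used a pseudocount of 0.5 CPM. No library was a copy of another: the smallest chi-square per gene between a pair was 50.2, far above counting noise. The script was tested on simulated counts.

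The members, the gene lists and the tests were chosen with earlier results of these data known. Every member is named; of each other list, up to 3 genes with the smallest unadjusted p across all 5 libraries could be named. Motifs were searched on both strands at the first-listed RefSeq start of each gene. Of the 40 promoters matched, 31 start on the same strand as a GENCODE transcript nearby, and all 40 were counted. The 9 members without a promoter in the RefSeq table were not used here. A further list of cell type markers is not reported here.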

Additional observations from a re-analysis of the deposited data

How the results depend on the processing

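The count of mitotic genes called lower was 0 with all 5 libraries and under every alternative except leaving out deleted 6; over the fits that left out 1 library it ran from 0 to 11. None was called higher under any alternative run. The median log2 fold change of the 49 genes, -0.98 with all libraries, was -0.56 with limma-voom and quality weights and -0.46 in lane 4 alone, and ran from -1.36 to -0.42 with 1 library left out. The lowest value came without deleted 2 and the highest without deleted 6. Cdc25b was the 1 gene whose direction turned, to 0.0898 with limma-voom and to 0.0348 without deleted 6, and its values with 1 library left out ran from -0.55 to that value. Over all 49 genes and 11 alternatives, 526 of 539 single-gene values kept their direction and their side of the threshold, 11 passed it, all without deleted 6, and 2 turned. The cause was not tested. The size of a change was not part of that count. All alternatives except lane 4 alone and leaving out deleted 6 kept that library, so the count says little about stability. Counts over all genes moved more: edgeR called 0 higher and 0 lower with all libraries, 163 and 115 with no filter on low counts, 1245 and 800 without deleted 6, and 211 and 131 in lane 4. DESeq2 called 927 higher and 492 lower, and limma-voom 1230 and 947. No paired analysis was possible because the wild-type and deleted libraries share no replicate number.

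The comparison rests on 2 wild-type libraries and on 3 deleted libraries of which 1 stands apart. The lowest member count was 12, in deleted 6, against 584 or more in the other 4 libraries. PCR copies were not told apart, so counts overstate independent molecules.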
